A study of Mus musculus with 2 samples.

Results

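Olfactory receptor genes encode the G protein-coupled receptors of the nose. Most have a single coding exon behind one or more short non-coding exons, and they lie in tandem clusters on many chromosomes. A mature olfactory sensory neuron expresses a single receptor allele, and some receptors are also found in other tissues such as sperm and kidney. Histone H3 trimethylated at lysine 27 (H3K27me3) is deposited by Polycomb repressive complex 2 and covers many silent developmental genes, while silent receptor clusters in the olfactory epithelium are known mainly for the heterochromatin marks H3K9me3 and H4K20me3.

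The genes described here were the protein-coding genes of mouse chromosome 11 whose symbols begin with Olfr and a digit in GENCODE release 21 on GRCm38, the assembly that mm10 names. The rule that chose them used symbol and position and not peaks, but it was set with earlier results of these data known. There were 82 of them among 21911 protein-coding genes, beside 1555 other protein-coding genes on chromosome 11 and 1052 olfactory receptor genes on other chromosomes. Joining genes that lay within 100 kb of each other gave 9 clusters of 2 to 21 genes. Olfr329-ps and Olfr391-ps carry a pseudogene suffix but are annotated as protein-coding, so they were kept.

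Chromatin immunoprecipitation followed by sequencing located H3K27me3 in MEL cells, an immortalised mouse erythroleukaemia line that the labels describe as an analogue of the human leukaemia line K562. The series held 1 group of 2 biological replicates, with no treatment, genotype or time point, and nothing in the sources says whether they came from separate cultures. The values were the positions of called peaks: each replicate had its own list, a pooled list was called on both, and the replicated list is a subset of the pooled peaks. Absence of a peak does not show absence of the mark, and sequencing depth is unknown since read counts are not part of these lists. Chromosome 11 had 6098 replicated peaks, of median width 296 bp, over 1.86% of its bases, against 0.173% to 0.873% of the other chromosomes that carry olfactory receptor genes. The part of that chromosome-wide level in the results below was not tested.

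The sequence at the starts of the receptor genes was AT-rich and had few CpG sites. The 300-base windows around the gene starts, 250 bases before and 50 after, had a median GC content of 43.7% and a median observed over expected CpG ratio of 0.0743 in the 82 receptor genes, against 57.3% and 0.643 in the other chromosome 11 genes. The 22 receptor genes with a marked start, as defined below, had medians of 44.0% and 0.0681, and the 60 without had 43.7% and 0.0755. To show the sequence itself, the RefSeq promoters of Olfr330, whose start was marked, and of Olfr224, a neighbour in the same cluster whose start was not, are printed with the bases under a replicated peak in capitals (GRCm38). The 1 replicated peak at the Olfr330 start had a −log10 q of 0.114, so the example rests on a weak call. It covered 69 of the 300 bases of the Olfr330 promoter. In Olfr224 a replicated peak covered 0 of 300. RefSeq promoters were available for 69 of the 82 genes, and in 8 of 70 such windows the RefSeq start lay within 50 bp of the GENCODE start, as in both of these.
Olfr330 promoter (chr11:58534776-58535075, minus strand): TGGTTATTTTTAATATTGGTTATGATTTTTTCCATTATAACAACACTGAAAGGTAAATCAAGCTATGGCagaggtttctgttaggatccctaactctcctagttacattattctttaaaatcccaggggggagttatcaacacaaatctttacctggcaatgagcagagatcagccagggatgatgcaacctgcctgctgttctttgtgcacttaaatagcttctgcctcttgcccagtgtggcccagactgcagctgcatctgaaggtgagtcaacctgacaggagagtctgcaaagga
Olfr224 promoter (chr11:58570519-58570818, minus strand): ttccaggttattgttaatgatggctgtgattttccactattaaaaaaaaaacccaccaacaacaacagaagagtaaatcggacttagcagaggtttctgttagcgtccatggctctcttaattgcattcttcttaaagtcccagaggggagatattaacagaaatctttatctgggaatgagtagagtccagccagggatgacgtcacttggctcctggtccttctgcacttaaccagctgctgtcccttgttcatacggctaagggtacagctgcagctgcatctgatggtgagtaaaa

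The next 4 sequences show the strongest replicated peak, by the authors' signal value, at a marked start in each cluster that had one and a RefSeq promoter for that gene. They are cut to 300 bases around the summit where the peak was longer and read on GRCm38. The Olfr1393 peak was intronic, and the other 3 lay outside annotated exons and genes, upstream of the gene named. The signal value, a score whose definition is not stated, was 5.80 for the Olfr223 peak with a −log10 q of 3.66, 5.39 for the Olfr331 peak with a −log10 q of 2.52, 3.81 for the Olfr1394 peak with a −log10 q of 1.49 and 3.33 for the Olfr1393 peak with a −log10 q of 0.533. The need for a RefSeq promoter left out a stronger start peak in the cluster of Olfr1394, that of Olfr1395 with a signal value of 5.81. It also left out Olfr411, the marked gene of Olfr389 to Olfr412, with 4.12. Capitals mark matches to TAATNA, the core that homeodomain factors bind, on either strand. The other motif searched, CCCNNGGG, the core bound by Olf/Ebf factors, had no match in these 4.
Olfr1394 peak (chr11:49153147-49153446, plus strand): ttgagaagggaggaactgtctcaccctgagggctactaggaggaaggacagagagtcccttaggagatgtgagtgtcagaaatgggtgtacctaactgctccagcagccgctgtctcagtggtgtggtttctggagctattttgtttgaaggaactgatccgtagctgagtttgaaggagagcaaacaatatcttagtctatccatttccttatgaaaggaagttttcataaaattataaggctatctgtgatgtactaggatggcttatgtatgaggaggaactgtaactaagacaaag
Olfr1393 peak (chr11:49278635-49278883, plus strand): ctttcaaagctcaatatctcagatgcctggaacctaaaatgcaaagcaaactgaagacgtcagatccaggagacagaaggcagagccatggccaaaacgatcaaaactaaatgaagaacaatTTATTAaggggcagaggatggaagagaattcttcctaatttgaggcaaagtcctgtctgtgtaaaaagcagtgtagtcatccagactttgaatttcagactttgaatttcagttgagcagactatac
Olfr331 peak (chr11:58503619-58503918, plus strand): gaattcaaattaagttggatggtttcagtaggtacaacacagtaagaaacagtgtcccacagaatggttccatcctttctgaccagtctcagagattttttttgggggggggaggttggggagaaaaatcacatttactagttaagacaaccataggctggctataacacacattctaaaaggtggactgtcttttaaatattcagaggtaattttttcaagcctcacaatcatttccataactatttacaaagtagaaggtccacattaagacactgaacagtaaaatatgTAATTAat
Olfr223 peak (chr11:59593797-59594096, plus strand): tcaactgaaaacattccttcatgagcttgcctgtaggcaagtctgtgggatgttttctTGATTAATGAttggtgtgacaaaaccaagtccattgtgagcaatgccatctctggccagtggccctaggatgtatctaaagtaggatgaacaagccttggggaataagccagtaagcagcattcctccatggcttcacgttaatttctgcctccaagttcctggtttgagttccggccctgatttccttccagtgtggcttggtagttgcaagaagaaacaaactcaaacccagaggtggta
In olfactory neurons the homeodomain proteins Lhx2 and Emx2 and the Ebf proteins bind receptor promoters and enhancers. Of the 70 RefSeq windows of the receptor genes, 45 are placed on the first coding base and not on the GENCODE start, so most of them flank the coding exon. TAATNA occurred in 65.7% of these 70 windows, against 26.5% of all 32851 RefSeq promoters, and CCCNNGGG in 2.86%, against 13.7%. The fixed letters of TAATNA are A and T, and those of CCCNNGGG are C and G. Receptor gene starts were AT-rich, with a median GC content of 43.7% against 57.3% in other chromosome 11 genes. The part of base composition in the motif shares was not tested. Around the summits of the 102 replicated peaks that overlapped a receptor gene, 47.1% of 300-base windows held TAATNA and 4.90% held CCCNNGGG, against 40.1% and 6.36% of the windows around all 6098 replicated peaks of chromosome 11. Both strands were searched with overlapping matches counted. A match is a run of letters and not a bound site.

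A start was called marked where at least 1 bp of a peak lay within 1 kb on either side of the outermost annotated start. In the replicated list 22 of the 82 receptor genes on chromosome 11 were marked, 26.8%, against 85 of the 1555 other genes of the chromosome, 5.47%, 27 of the 1052 receptor genes on other chromosomes, 2.57%, and 3.0% of all protein-coding genes. In the list of replicate 1, 25 of the 82 were marked, 30.5%, against 7.85% of the other chromosome 11 genes and 3.8% of receptor genes elsewhere. In the list of replicate 2, 34 were marked, 41.5%, against 9.97% and 6.27%. The pooled list marked 27 of the 82, against 8.04% of the other chromosome 11 genes. With peaks of a −log10 q of 2 or more, 9 of the 82 were marked, against 1.41%. In each of these lists the share of receptor genes on chromosome 11 lay above that of the other chromosome 11 genes, and both replicates lay on the same side. Neighbouring genes share peaks and a cluster, so the 82 genes are not 82 independent observations and no p-value was computed.

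**Figure D1:**
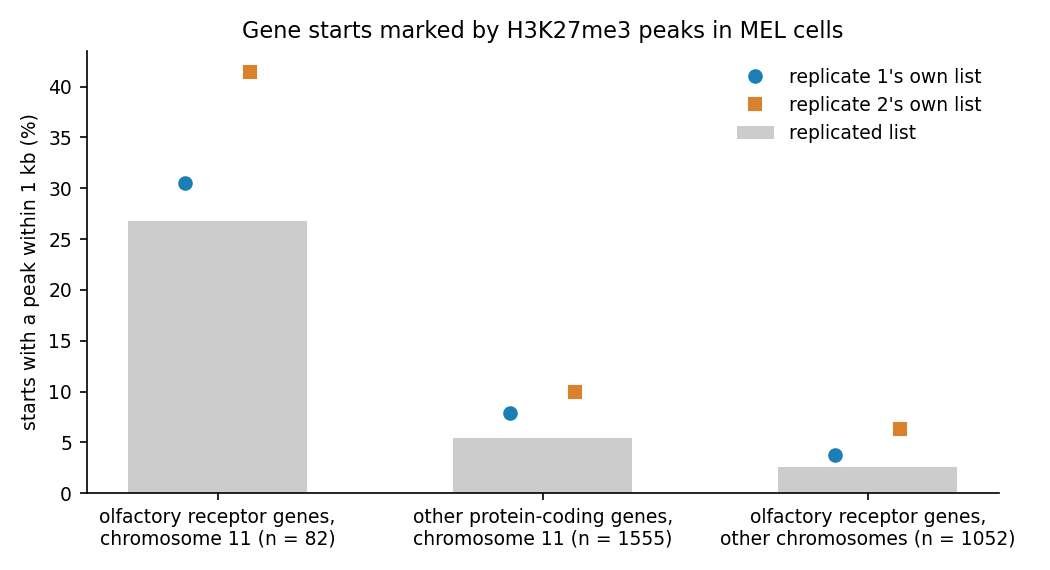
Share of gene starts with a peak within 1 kb, in percent, for the 82 receptor genes of chromosome 11, the 1555 other genes of that chromosome and the 1052 receptor genes of other chromosomes. Bars are the replicated list and points each replicate's own list; the receptor genes of chromosome 11 stand at 26.8%, 30.5% and 41.5%, above both other sets in all 3 lists.

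Gene bodies gave the same order. Replicated peaks covered 4.79% of the bases in the bodies of the 82 genes, against 1.52% in the other chromosome 11 genes and 0.612% in receptor genes on other chromosomes. The chromosome 11 receptor genes had 4.89% in replicate 1 and 5.90% in replicate 2, against 1.64% and 2.19% in the other genes of the chromosome. The median over the 82 genes was 0 in the replicated list, because 51 of them had no covered base in the body: the mean was carried by a minority. The median was 0 in the other chromosome 11 genes and in receptor genes elsewhere too. At least 10% of the body was covered in 20.7% of the 82 genes, against 5.85% of the other chromosome 11 genes. Chromosome 11 was also not the only chromosome with marked receptor genes. On chromosome 15, 7 of 9 receptor genes were marked, 77.8%, against 4.65% of its other protein-coding genes. On chromosome 7 it was 5 of 243, 2.06%, near the 1.80% of its other genes. On chromosome 2, which has the most receptor genes, it was 0 of 294, against 3.49%.

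The covered bases were concentrated in 4 of the 9 clusters. Olfr222 to Olfr223, with 2 genes, was covered over 23.3% of its bases in the replicated list, with 32.5% in replicate 1 and 29.7% in replicate 2. Olfr30 to Olfr311, with 21 genes over 390007 bp, was covered over 13.8%, 12.8% and 16.3%. Olfr462 to Olfr464, with 3 genes, had 11.8%, 10.96% and 16.8%, and Olfr56 to Olfr1394, with 4 genes, had 6.87%, 6.75% and 5.83%. These shares exceeded the 1.86%, 2.05% and 2.68% of the whole chromosome in every list. The other 5 clusters lay below the chromosome in all 3 lists: the replicated list covered 0.989% of Olfr1393 to Olfr1380, 0.697% of Olfr1373 to Olfr1371, 0.289% of Olfr389 to Olfr412 and no base of Olfr1378 to Olfr1375 or Olfr20 to Olfr384. Together the 9 clusters made up 1.57% of chromosome 11 and 3.57% of its covered bases, and 66.3% of the covered cluster bases belonged to Olfr30 to Olfr311.

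**Figure D2:**
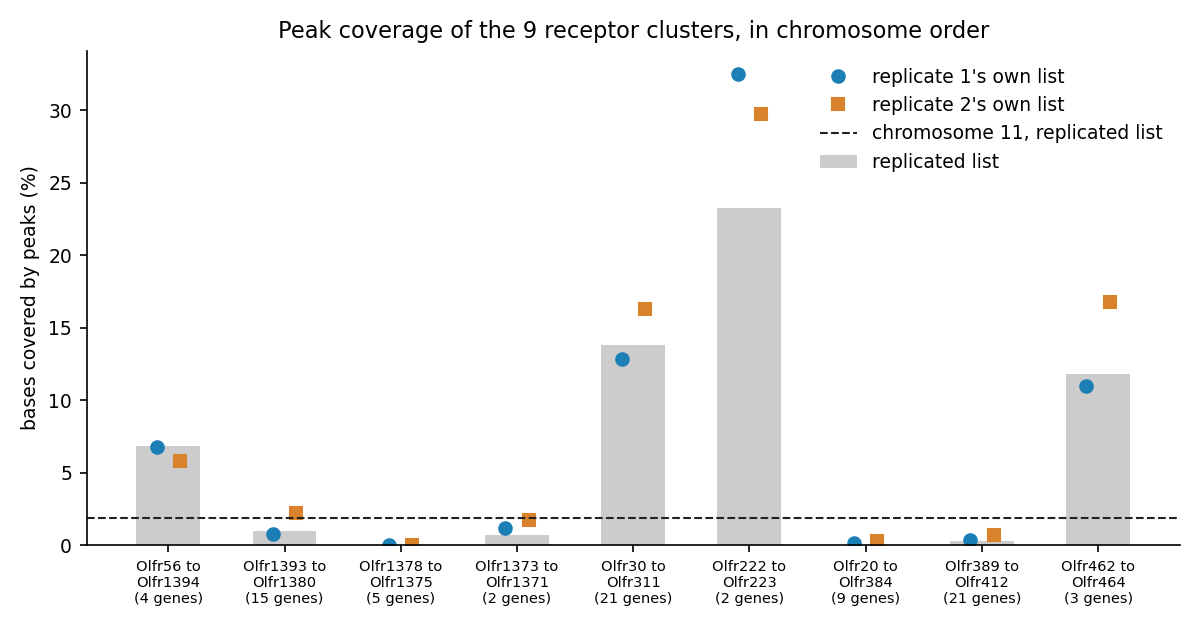
Share of the bases of each of the 9 clusters under a peak, in percent, in chromosome order. Bars are the replicated list, points the lists of replicates 1 and 2, and the dashed line is chromosome 11 in the replicated list at 1.86%; 4 clusters stand above the line in every list and 5 lie below it in the replicated list.

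For scale, the chromosome was tiled end to end into windows of each cluster's length. Of 305 windows as long as Olfr30 to Olfr311, 5 were covered as much or more by replicated peaks, as were 6 with the peaks of replicate 1 and 3 with those of replicate 2, and 0.349% of the median window lay under replicated peaks. Of 5155 windows as long as Olfr222 to Olfr223, 91, 34 and 70 were covered as much or more. Clusters below the chromosome's share were not all below its median window. In the replicated list 152 of 413 windows were covered as much as Olfr1393 to Olfr1380 or more, and the median window had 0.255%. For Olfr1373 to Olfr1371 it was 477 of 1711, with a median of 0, and for Olfr389 to Olfr412 114 of 201, with 0.545%. Of 468 windows as long as Olfr20 to Olfr384, 197 were as empty. Some windows overlap the clusters themselves, and the counts describe the chromosome without a test.

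In Olfr30 to Olfr311 (chr11:58454105-58844111) 17 of the 21 starts were marked in the replicated list, against 5 of the 61 receptor genes in the other clusters and the 5.47% of other chromosome 11 genes. The cluster held 134 replicated peaks with a median width of 302.5 bp, of which 33 reached a −log10 q of 2. Olfr315 had the most covered bases within 5 kb of its start, 3512 bp in the replicated list, with 3038 bp in replicate 1 and 4615 bp in replicate 2. Olfr311, the last gene of the cluster, had 3309 bp in the replicated list, 2956 bp in replicate 1 and 3026 bp in replicate 2. Olfr30, the first gene, had 3253 bp, 1901 bp and 3653 bp in the same lists. The remaining marked genes of the cluster, with 754 to 2554 bp in the replicated list, were Olfr332, Olfr331, Olfr330, Olfr325, Olfr324, Olfr323, Olfr322, Olfr320, Olfr319, Olfr318, Olfr317, Olfr316, Olfr313 and Olfr312. The smallest overlap was that of Olfr331, with 34 bp inside the 1-kb window of the replicated list. Replicate 1 had 0 bp there and replicate 2 had 83 bp. The Olfr331 peak had a −log10 q of 2.52. By −log10 q the weakest calls were those of Olfr330 and Olfr320, with 0.114, then Olfr322 with 0.218 and Olfr316 with 0.543.

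The 4 unmarked genes of the cluster were Olfr329-ps, Olfr328, Olfr224 and Olfr314, and 3 of them had replicated peaks within 5 kb of the start. Olfr329-ps had 1721 bp covered within 5 kb of its start in the replicated list and Olfr314 had 767 bp, in both cases more than 1 kb from the start. Replicate 2 placed 535 bp within 1 kb of the start of Olfr329-ps and replicate 1 placed 24 bp within 1 kb of that of Olfr314. Olfr224 had 563 bp in the replicated list, 204 bp in replicate 1 and 572 bp in replicate 2. Olfr328 had 0 bp in the replicated list and in replicate 1 and 420 bp in replicate 2, 140 bp of them within 1 kb. Both replicates' lists covered bases within 5 kb of the start of 20 of the 21 genes, Olfr328 being the exception. Within the cluster 56.5% of the bases covered in replicate 1 were also covered in replicate 2, and 44.6% of those of replicate 2 in replicate 1, against 44.6% and 34.1% over the whole chromosome.

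A stretch without peaks interrupted the cluster around Trim58. Trim58 encodes an E3 ubiquitin ligase that is induced late in red cell differentiation, and it is one of 3 genes inside the cluster that are no olfactory receptor genes. Its body (chr11:58640465-58652404, plus strand) and the 5 kb on each side of its start had no covered base in any of the 4 lists. The stretch between the nearest peaks, chr11:58630985-58657907, was 26923 bp in the replicated list, 26390 bp in replicate 1, 25976 bp in replicate 2 and 26061 bp in the pooled list. It was the longest peak-free stretch of the cluster in each list, and the next longest was 16774 bp, 19433 bp, 14114 bp and 16383 bp. The median distance between neighbouring peaks of the cluster was 895 bp in the replicated list. The nearest replicated peaks ended 9480 bp before Trim58 and began 5503 bp after it, at the receptor genes Olfr323 and Olfr322. Coverage was 17.4% of the cluster to the left of the stretch and 12.3% to the right in the replicated list, 15.4% and 12.2% in replicate 1, and 19.5% and 15.5% in replicate 2. Attention fell on this stretch once its values were known.

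The peak that ends the stretch on the right is printed because it marks where coverage resumed in the replicated list. It is the 397-bp peak upstream of Olfr322, given by its first 300 bases, the end that faces Trim58, and it overlapped no annotated exon. Capitals mark TAATNA on either strand.
Peak after Trim58 (chr11:58657908-58658207, plus strand): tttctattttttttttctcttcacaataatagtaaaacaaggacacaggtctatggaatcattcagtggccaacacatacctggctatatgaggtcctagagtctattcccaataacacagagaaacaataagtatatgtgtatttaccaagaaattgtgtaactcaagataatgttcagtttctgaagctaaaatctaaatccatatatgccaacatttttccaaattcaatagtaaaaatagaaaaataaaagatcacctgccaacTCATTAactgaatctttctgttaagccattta
The Olfr322 peak had a signal value of 2.76 and a −log10 q of 0.218, so the right-hand border rests on a weak peak. Reads from repeated sequence can be hard to place, so the share of 32-base words found once in the genome was counted. It was 94.9% in the stretch around Trim58 and 75.0% in the rest of the cluster, and repeat-masked bases made up 22.6% of the stretch and 36.7% of the rest. The part of these shares in the lack of peaks was not tested. The other non-receptor genes in the cluster were not free of peaks: 2210407C18Rik was marked, with 533 bp within 1 kb of its start in the replicated list, 565 bp in replicate 1 and 20 bp in replicate 2, and Fam183b had 3.02% of its body covered in the replicated list, with 12.2% in replicate 1 and 8.78% in replicate 2.

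**Figure D3:**
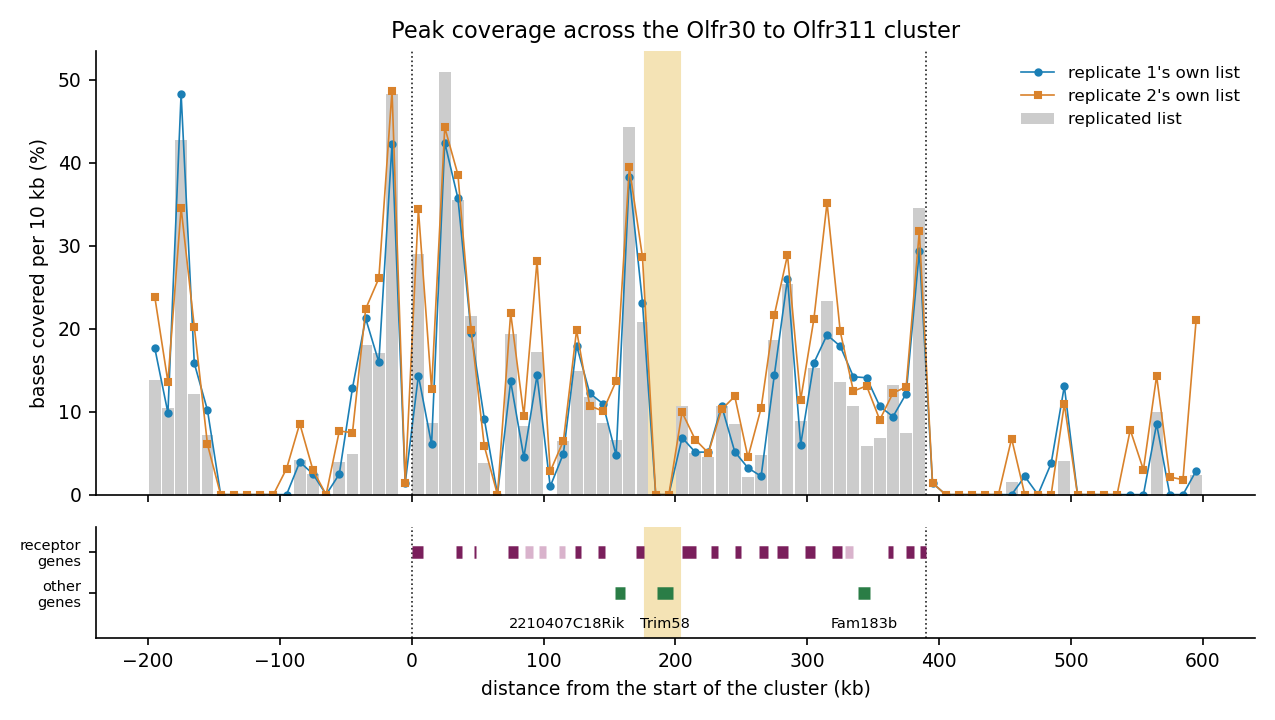
Share of bases under a peak in 10-kb bins, in percent, from 200 kb before to 200 kb after the Olfr30 to Olfr311 cluster, against distance from its start in kb (dotted lines, cluster ends). Bars are the replicated list and lines each replicate; dark blocks are receptor genes with a marked start, pale blocks those without, green blocks the other genes inside, and the shaded band is the peak-free stretch of 26923 bp around Trim58.

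The 2 ends of the cluster differed. The 100 kb before Olfr30 was covered over 9.89% of its bases in the replicated list, with 10.3% in replicate 1 and 12.8% in replicate 2. The 100 kb after Olfr311 was covered over 0.150%, 0.735% and 0.815%. Replicated peaks resumed 67228 bp after the end of Olfr311, although replicate 1 had a peak 19 bp and replicate 2 a peak 252 bp beyond it. Lypd9, the nearest gene before the cluster, had no replicated peak within 1 kb of its start and 504 bp within 5 kb, and Gm12258, the nearest after it, had 0 bp within 5 kb.

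Peaks in receptor genes lay mostly outside the coding sequence. In the 21 genes of Olfr30 to Olfr311, replicated peaks covered 2.03% of the coding bases and 18.2% of the rest of the gene bodies. Replicate 1 covered 3.82% and 16.3%, and replicate 2 covered 4.47% and 21.9%. Over all 82 genes the replicated shares were 1.08% and 5.25%, and 5 of the 82 genes had any coding base under a replicated peak. The difference was smaller in replicate 1, which covered 2.60% of the coding bases and 5.17% of the rest, with 8 such genes. Replicate 2 covered 1.90% and 6.39%, with 9 such genes. Receptor coding sequences resemble each other, and 64.0% of the 32-base words in the coding sequence of the cluster occurred once in the genome, against 86.5% in the rest of the bodies. The part of this difference in the lower coverage was not tested. Around the starts of the 21 genes the covered share in the replicated list was 24.0% in the 500 bp before the start and 25.1% between 500 and 1000 bp after it, with 15.9% in the 500 bp after the start. Other chromosome 11 genes had 1.23%, 1.17% and 1.12% in the same bins and 3.18% in the bin farthest upstream.

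**Figure D4:**
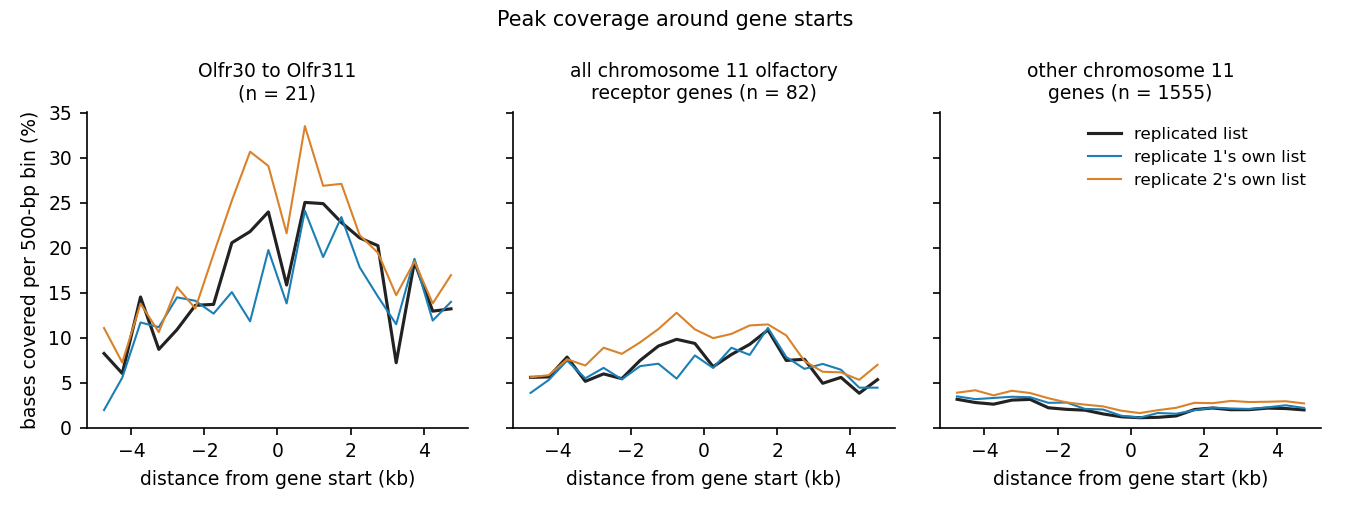
Share of bases under a peak in 500-bp bins, in percent, from 5 kb before to 5 kb after the gene start, for the 21 genes of Olfr30 to Olfr311, all 82 receptor genes of chromosome 11 and the 1555 other genes of the chromosome. Lines are the replicated list and each replicate; the 21 genes reach 25.1% in the replicated list, while the other genes have their lowest values, near 1.12%, at the start.

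The Olfr222 to Olfr223 cluster (chr11:59570255-59593289) held the most covered gene body. Olfr223 had 60.02% of its body covered in the replicated list, with 83.1% in replicate 1 and 57.2% in replicate 2. It had 5787 bp, 6590 bp and 5798 bp covered within 5 kb of its start, and 1567 bp, 1703 bp and 1208 bp within 1 kb. Olfr222, the other gene of the pair, had 0 bp within 1 kb in the replicated list, but 212 bp in replicate 1 and 241 bp in replicate 2, so it was marked in both replicates and not in the replicated list. Joining peaks within 3 kb gave a block of 26531 bp at chr11:59586487-59613017 that contained Olfr223, and 44.7% of it lay under replicated peaks. The block reached past the cluster to Olfr225, a receptor gene that the annotation lists as a pseudogene and whose start was also marked, with 1109 bp. On the left, Nlrp3, which encodes the sensor of an inflammasome, had 15.1% of its body covered in the replicated list, with 16.6% in replicate 1 and 22.5% in replicate 2. Mprip, the nearest protein-coding gene on the right, had no covered base.

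In Olfr56 to Olfr1394 (chr11:48978889-49162854) the peaks lay in the part with Olfr1395 and Olfr1394. Olfr1395 had 6062 bp covered within 5 kb of its start, the highest of the 82 genes in the replicated list, with 5637 bp in replicate 1 and 3756 bp in replicate 2. Olfr1394 had 3444 bp, 2501 bp and 3396 bp. A block of 16417 bp at chr11:49129413-49145829 contained the start of Olfr1395 and the coding end of Olfr56, and 51.7% of it lay under replicated peaks. Olfr1396 was marked in replicate 1 alone, with 140 bp, and had 330 bp within 5 kb in the replicated list. Olfr56 is annotated over 156499 bp with a start far from its coding exon, and that start had no covered base in any list. Within 1 kb of the Olfr56 start 5.20% of 32-base words were found once, the lowest share of the 82 genes. The part of that share in the empty start was not tested. The cluster also contains interferon-inducible GTPase genes. Tgtp1 had 0 bp within 1 kb of its start in the replicated list and in replicate 1 and 265 bp in replicate 2. Tgtp2, Ifi47 and the 2 genes named 9930111J21Rik1 and 9930111J21Rik2 had no covered base in the gene body or within 5 kb of the start, and Gm12185 had 0.379% of its body covered. A peak-free stretch of 115941 bp, 110423 bp in replicate 1 and 131375 bp in replicate 2, ran through Tgtp2, Ifi47 and 9930111J21Rik2. The cluster had the second lowest share of 32-base words found once, 57.0%. On its flanks Psme2b had no covered base and Btnl9, a butyrophilin-like gene, had 4.12% of its body covered.

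In Olfr462 to Olfr464 (chr11:87884979-87920967) the bodies were covered and the starts were not marked in the replicated list. Olfr462 had 29.5% of its body covered in the replicated list, with 21.5% in replicate 1 and 34.2% in replicate 2. Olfr463 had 7.17%, 9.87% and 31.3%, and Olfr464 had 7.81%, 6.92% and 6.69%. Replicate 2 alone marked the starts of Olfr462, with 221 bp, and Olfr463, with 134 bp. Peaks were present on both sides of the cluster, over 6.27% of the 100 kb before it and 7.07% of the 100 kb after it. The neighbour Epx, which encodes eosinophil peroxidase, was marked with 150 bp in the replicated list, 0 bp in replicate 1 and 526 bp in replicate 2. Dynll2, a dynein light chain gene on the other side, had 159 bp within 5 kb of its start.

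The 15 genes of Olfr1393 to Olfr1380 lie 115449 bp beyond Olfr1394, just over the distance that would have joined the 2 clusters. Olfr1393, the first gene, was marked with 249 bp in the replicated list, 315 bp in replicate 1 and 140 bp in replicate 2. Its neighbour Olfr1392 had no replicated peak within 1 kb of the start but 17.1% of its body covered, with 11.5% in replicate 1 and 20.5% in replicate 2. The longest peak-free stretch of the cluster, 166952 bp, began just past Olfr1392 in the replicated list, and the longest was 138036 bp in replicate 1 and 53313 bp in replicate 2. Olfr1381 was marked in both replicates, with 140 bp and 310 bp, and not in the replicated list. Olfr1389, Olfr1384, Olfr1382 and Olfr1380 were marked in replicate 2 alone, with 221 bp, 157 bp, 171 bp and 270 bp. The nearest other genes were Mgat1, an N-glycan glycosyltransferase gene with no covered base, and Flt4, which encodes a vascular endothelial growth factor receptor and had 1.92% of its body covered.

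The remaining 37 genes were almost free of peaks. Olfr1378 to Olfr1375, with 5 genes over 82521 bp, had no covered base in any of the 4 lists, and its neighbour Zfp354a had none either. Of 1439 windows of its length, 901 were as empty in the replicated list. Olfr20 to Olfr384, with 9 genes over 254310 bp, had no replicated peak, 0.175% covered in replicate 1 and 0.314% in replicate 2, while the gene before it, Spata22, which acts in meiosis, had 12.03% of its body covered and Gm49340, an annotated gene that runs from Spata22 into the cluster, had 7.50%. In Olfr389 to Olfr412, with 21 genes over 591370 bp, the first 578266 bp had no replicated peak, and the longest free stretch was 311136 bp in replicate 1 and 230782 bp in replicate 2. Its far end had peaks. Olfr411 was marked with 536 bp in the replicated list and 438 bp in replicate 2 but 0 bp in replicate 1, where 1311 bp were covered within 5 kb. Olfr412 was marked in both replicates, with 142 bp and 171 bp, and Olfr410 in replicate 2 alone, with 140 bp. Zfp735, the nearest gene before the cluster, and Zfp616, inside it, had no covered base within 5 kb of their starts, and Rap1gap2, after it, had 274 bp. Olfr1373 and Olfr1371 had no replicated peak within 5 kb, and neither did Ppp2ca and Skp1a on their flanks. Their cluster had 42.0% of its 32-base words found once, the lowest of the 9, and the part of that share in the low coverage was not tested.

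**Figure D5:**
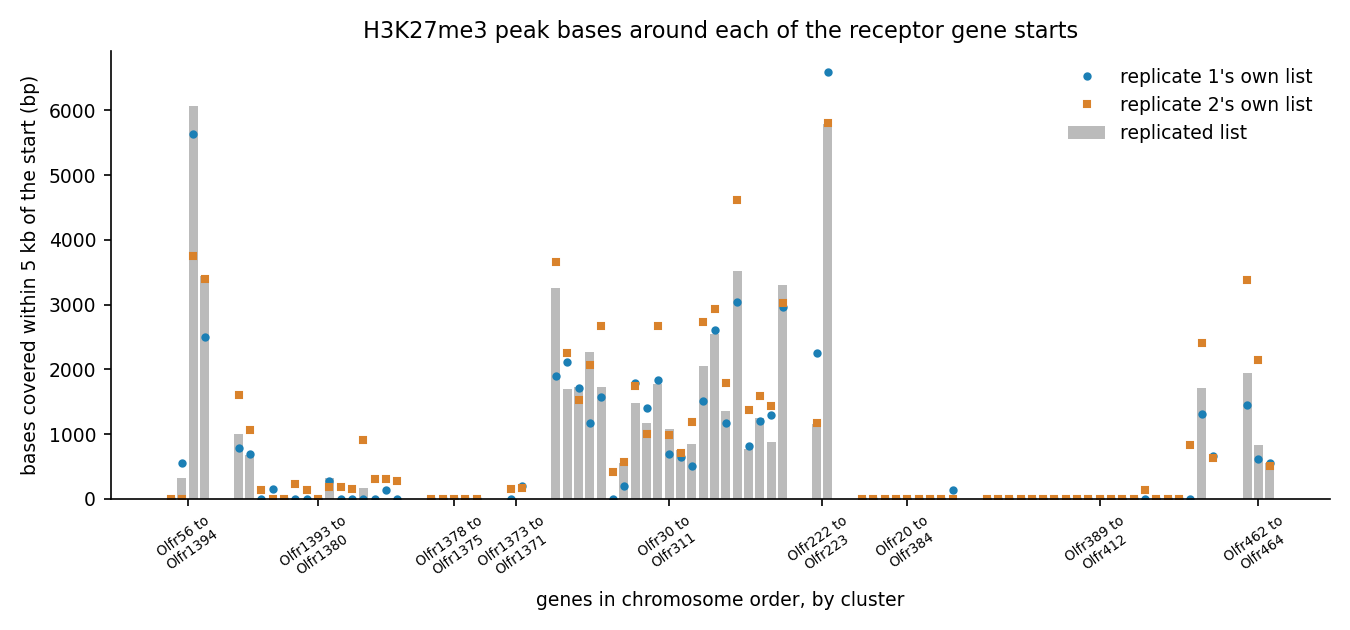
Bases under a peak within 5 kb of the start of each of the 82 genes, in bp, in chromosome order and grouped by cluster. Bars are the replicated list and points each replicate; Olfr1395 and Olfr223 stand highest with 6062 bp and 5787 bp, and the genes of Olfr1378 to Olfr1375 and Olfr20 to Olfr384 are at 0 in the replicated list.

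Over the 82 genes the replicates ranked the genes alike. The bases covered within 5 kb of the start had a Pearson correlation of 0.90 and a Spearman correlation of 0.87 between replicate 1 and replicate 2, given as a description since the genes share clusters and libraries. The list of replicate 2 was longer, with 12904 peaks on chromosome 11 against 9769 in replicate 1. The part of list length in the next counts was not tested. Replicate 2 had more covered bases at 36 genes, replicate 1 at 13, and the 2 were equal at 33. The same 33 genes had no covered base within 5 kb of the start in any of the 4 lists. Empty windows were more common among other genes. In the replicated list 40.2% of the 82 genes had a covered base within 5 kb, against 19.7% of other chromosome 11 genes. Of the starts, 23 were marked in both replicates, 2 in replicate 1 alone, Olfr1396 and Olfr314, and 11 in replicate 2 alone. Of the 23, 20 were in the replicated list, as were Olfr331 and Olfr411, which were marked in replicate 2 and not in replicate 1. Within 1 kb of the start a median of 92.1% of 32-base words were found once at the 22 marked genes, against 90.8% at the 60 unmarked ones. The share was under 50% at 0 of the 22 marked genes and at 5 of the 60 unmarked ones, with minima of 50.5% and 5.20%. The median was 91.2% over the 82 genes and 99.0% over the other chromosome 11 genes. The part of these shares in the calls was not tested.

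Few genes of a list for olfactory signalling and olfactory neurons were marked in the replicated list or in either replicate's own. Counts this small give no order against all genes. Of 33 such genes, among them the olfactory G protein gene Gnal, the adenylyl cyclase gene Adcy3, the channel genes Cnga2 and Cnga4, the receptor transport genes Rtp1 and Rtp2 and the transcription factor genes Ebf1 and Emx2, Cngb1, a subunit gene of the olfactory cyclic nucleotide-gated channel, was the one with a marked start in the replicated list, beside 3.0% of all genes. Cngb1 had 260 bp within 1 kb of its start in the replicated list, 164 bp in replicate 1 and 551 bp in replicate 2. Replicate 1 marked 3 of the 33, against 4.46% of all genes, and replicate 2 marked 2, against 6.28%. In other chemoreceptor families the replicated list marked 0 of 208 vomeronasal type 1 receptor genes, 1 of 122 vomeronasal type 2 receptor genes, 0 of 15 trace amine-associated receptor genes, 0 of 38 taste receptor genes and 0 of 7 formyl peptide receptor genes. Replicate 1 marked 1, 1, 2, 0 and 0 genes of these families, in the same order, and replicate 2 marked 2, 2, 1, 0 and 0. Of 22 annotated receptor pseudogenes on chromosome 11, 3 were marked in the replicated list, and 3 in each replicate's own list. In the replicated list this stands beside 22 of the 82 protein-coding receptor genes and 5.47% of the other chromosome 11 genes. The 3 were Olfr333-ps1 and Olfr326-ps1 inside Olfr30 to Olfr311 and Olfr225 beside Olfr223. Olfr333-ps1 had 83.7% of its body covered.

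Of 22 erythroid genes, the lineage of the labelled line, each replicate's own list marked 2. Beside this stand 4.46% of all genes in replicate 1 and 6.28% in replicate 2. The replicated list marked 1 of the 22, beside 3.0% of all genes. It was Slc4a1, on chromosome 11, which encodes the red cell anion exchanger band 3, with 410 bp in the replicated list, 373 bp in replicate 1 and 304 bp in replicate 2. The other 21, including Gata1, Klf1, Alas2 and Trim58, had no replicated peak within 1 kb of the start. Among them Hba-x was marked in both replicates' own lists, with 140 bp in replicate 1 and 189 bp in replicate 2. Peak lists show the mark and not expression, so they cannot check the identity of the cells.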

How the data were processed

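H3K27me3 chromatin immunoprecipitation sequencing of the MEL line was deposited as peak lists, 1 for each of 2 biological replicates and a pooled and a replicated list for both; an mm9 list was not used. Per the deposited text descriptions, replicate lists were called against 1 shared control alignment and the replicated list was derived from the other 3. The sources used here name no aligner, peak caller or rule for keeping peaks. The authors' signal value is a score of unstated definition, and −log10 p-values and −log10 q-values per peak are as deposited; 16.8% of the replicated peaks of chromosome 11 reached a −log10 q of 2. Group and replicate number came from the labels.

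Peaks were joined to their union and intersected with GENCODE release 21 genes on GRCm38, keeping the longest gene per symbol. Python 3.11.15, pandas 2.3.3, numpy 2.4.6 and numba 0.67.0 were used. The coverage code was checked on simulated intervals. The genes, lists and comparisons were chosen with earlier results of these data known, so no test, p-value or interval is given, and the spread is shown by each replicate's own list. Named were all genes with a replicated marked start, the 10 with most bases within 5 kb of the start and the 10 with the largest covered share of the body, genes marked in 1 replicate alone or in both and not in the replicated list, every gene of clusters of up to 3 genes, and the nearest other genes. Some items that these rules cover are not reported here. Promoters were to be those of the genes with most covered bases, but Olfr1395 and Olfr315 had no entry and the Olfr223 entry started inside the gene, so Olfr330 and Olfr224 were taken after their values were seen. The alternatives were other lists, stricter peaks, other start windows, coding starts, joined peaks and other cluster distances.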

Additional observations from a re-analysis of the deposited data

How the results depend on the processing

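Counts of marked starts and covered shares moved with the list and the strictness of the peaks, and the order of the sets did not change in any of the alternatives tried: the share of marked receptor genes on chromosome 11 stayed above that of the other chromosome 11 genes and of receptor genes elsewhere. From one replicate's own list to the other's, the marked receptor genes of chromosome 11 numbered 25 to 34, the other chromosome 11 genes 122 to 155 and the receptor genes elsewhere 40 to 66, and the covered body share was 4.89% to 5.90% in the chromosome 11 receptor genes, against 1.64% to 2.19% in the other genes. At a −log10 q of 2 or more the 3 counts were 9, 22 and 8 and the body shares 1.80% and 0.411%. With the upper 50% of peaks by signal value, 17 receptor genes of chromosome 11 were marked, against 56 other genes of the chromosome and 17 receptor genes elsewhere, and the body shares were 3.69% and 1.00%. With 2.5 kb on each side of the start, 29 receptor genes of chromosome 11 were marked, 35.4%, against 192 other genes of the chromosome, 12.3%, and 42 receptor genes elsewhere, 3.99%. The pooled list marked 43 receptor genes elsewhere, 4.09%, against 32.9% of those on chromosome 11, and covered 5.90% and 1.94% of the bodies. Joining peaks within 3 kb covered 13.9% and 3.59%. The 4 clusters above the chromosome stayed above it under every other list and filter and with joined peaks. Joining genes within 50 kb gave 14 groups, with Olfr1393 to Olfr1390 above the chromosome as well, at 3.42%. Joining within 250 kb gave 7 groups and put 30 genes into one from Olfr20 to Olfr412. Of 23 named genes, 7 had no base left within 5 kb of the start at a −log10 q of 2 or more. No paired analysis was possible because there is 1 group. Read depth is unknown, and weak broad signal between narrow peaks cannot be seen in these lists.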
